A study of Mus musculus with 4 samples.

Results

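Protein tyrosine phosphatases and dual-specificity phosphatases were examined in CD4+CD25+ spleen cells, the population sorted to obtain regulatory T cells (Tregs), of wild-type (WT) and Helios knockout mice. Genes were chosen by name, as Ptpn or Dusp followed by a number or Ptpr followed by a letter and an optional digit, and by level, with a deposited value of 10 or more in at least 2 of the 4 libraries. The table of 16383 genes held 55 such names, and 41 of them passed the level rule, among 11571 genes that passed it in all. The values that chose the members were levels in all 4 libraries, but Ptpn4, Ptpn5 and Dusp2 were known from earlier results of these data to stand out between the genotypes, so their differences are given as a description.

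The study compared WT mice with mice carrying a knockout of both copies of Ikzf2 (Ikzf2-/-, labelled Helios KO). Ikzf2 is the gene of the zinc finger transcription factor Helios. All mice were 7 weeks old, with 2 libraries for each genotype. The labels name no strain and no other allele or treatment, and do not say whether a library came from 1 mouse or from pooled mice. The p-values therefore rest on the spread among these 4 samples alone, and that spread may be technical. RNA-seq libraries were made from 5 ng of RNA. Each deposited value is a read number that the authors normalised and divided by the median length in kb of a gene's transcripts. That length need not be the length of the RNA in these cells, and was 0.421 kb for Ptpn6 and 5.567 kb for Ptpn11. Abundance, ratios and shares set between genes below are by this value and depend on the divisor, while ratios of a gene between libraries do not.

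Protein tyrosine phosphatases remove phosphate from tyrosine residues and so reverse the work of the kinases that carry antigen receptor and cytokine signals. Non-receptor forms (Ptpn) lie in the cytoplasm, nucleus or on inner membranes, and receptor forms (Ptpr) span the plasma membrane. Dual-specificity phosphatases (Dusp) also act on serine and threonine. Their best known branch, the MAP kinase phosphatases, inactivates ERK, JNK and p38, and several of its genes are transcribed within minutes of a signal and close a negative feedback loop on it. In T cells the balance of these enzymes helps to set the threshold of the antigen receptor.

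The 4 libraries held 42157138 to 52543073 recovered reads. The summed value of the 6 T cell markers in the table lay between 297382 and 336700.5, and Foxp3, the transcription factor that defines Tregs, between 25224 and 41264. Il2ra, the gene of CD25, lay between 26759 and 40457. Ikzf2 was at 5282 and 7864 in WT libraries against 4396 and 3104 in knockout libraries, lower in both knockout libraries but far from 0. Which exons the allele lacks is not in the labels, so this value, for the gene as a whole, checks the genotype weakly. Helios KO replicate 2 stood apart. Its 11 red pulp macrophage markers summed to 113536, against 1539 to 4854 in the other libraries, and its 10 neutrophil markers to 38162, against 45.2 to 145. None of the 10 neutrophil markers was at 0 there, while 2, 7 and 3 were at 0 in WT replicate 1, WT replicate 2 and Helios KO replicate 1. Markers of NK and cytotoxic cells (26075 against 4413 to 5928), erythroid cells (11823 against 130 to 556), dendritic cells (9850 against 4801 to 6252), platelets (2153 against 130 to 189), plasma cells (17262 against 9730 to 11860), mast cells and basophils (883 against 22.0 to 53.7) and B cells (2868 against 1041 to 2022) were also highest in that library. The summed Treg markers, Ikzf2 included, were lowest in it (143374 against 172960 to 195477). Values of the genes named below are therefore given by library.

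At the 0.05 level none of the 41 phosphatases was called changed between the genotypes by limma with Benjamini-Hochberg adjustment over all genes, where the background was 0% of all genes tested. Over all genes 386 had an unadjusted limma p under 0.05, and limma-voom called 0 with 385 at that level. At an unadjusted p under 0.05 there were 3 members, 2 lower and 1 higher in the knockout, against a background of 3.34% of all genes in either direction (2.06% lower and 1.28% higher). These were Ptpn5, Ptpn4 and Dusp2. By limma-voom on recovered reads 0 members were called and 5 had an unadjusted p under 0.05, Ptpn14 and Ptprf being the additional ones. The median log2 fold change over the 41 members was 0.05, beside a median of -0.0014 over all genes. The knockout to WT ratio of mean values lay between 0.8 and its reciprocal for 25 of 41 members, above that range for 12 and below it for 4. Taken without sign, the median log2 fold change was 0.185 over the members, larger than the 0.110 over all genes. Counted by library, 10 members lay higher in both knockout libraries than in both WT libraries and 4 lay lower, where the background was 12.5% of all genes higher and 15.7% lower. In either direction 14 members (34.1%) did not overlap between the genotypes, beside 28.2% of all genes. Libraries of the same genotype differed at least 2-fold for 5 members in the knockout (Dusp1, Dusp5, Ptprm, Ptpro and Ptprk), beside 10.8% of all genes, and for 1 member in WT (Ptprm), beside 3.55%.

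**Figure D1:**
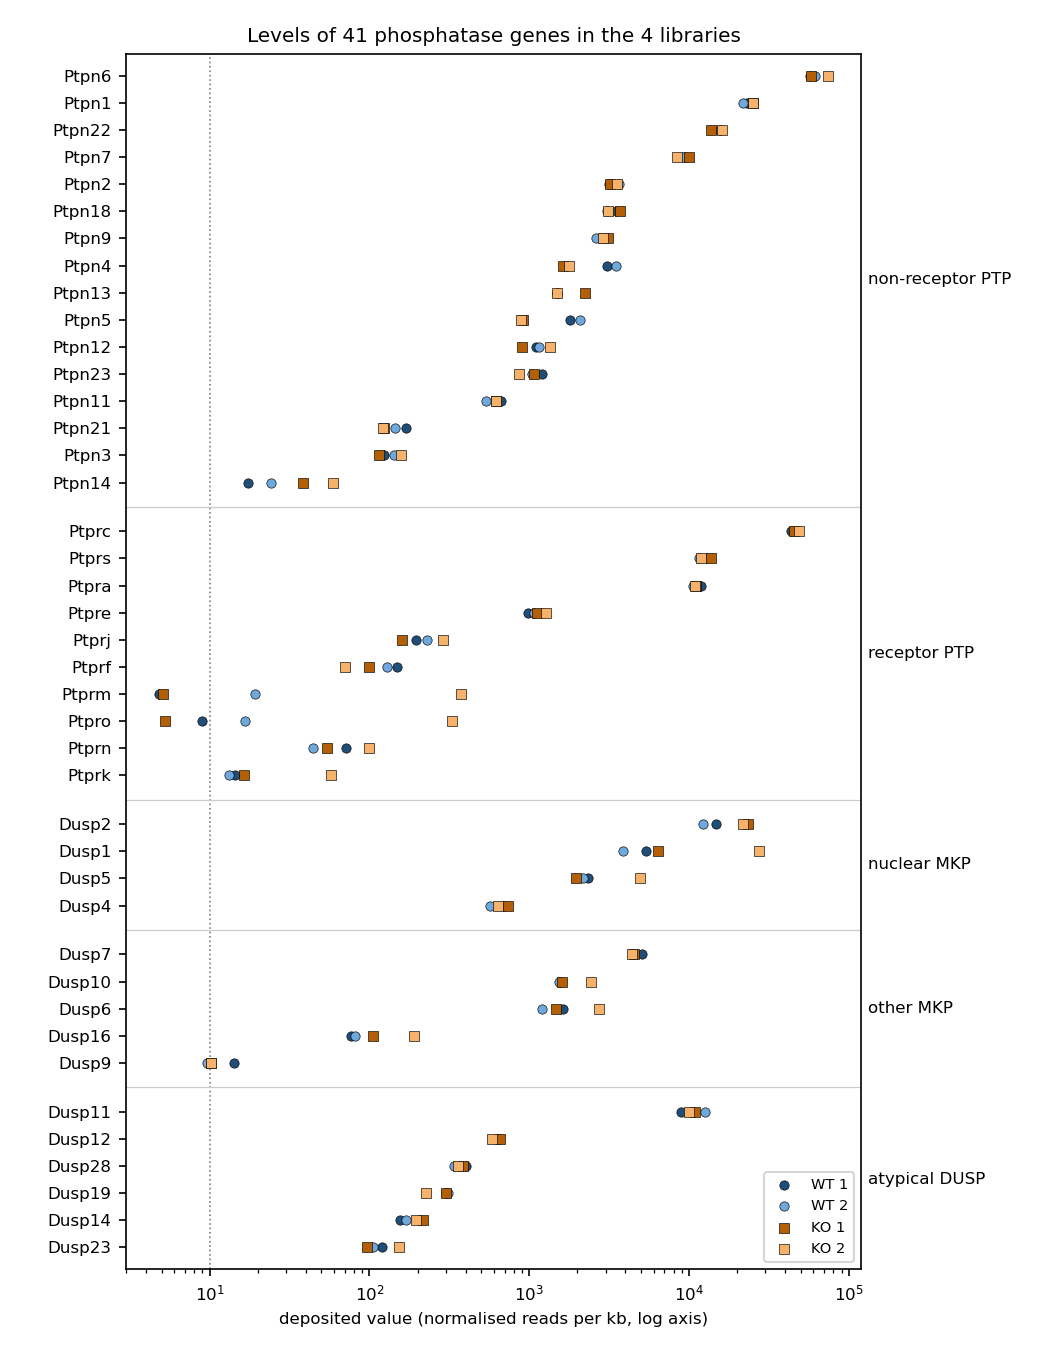
Deposited value (normalised reads per kb, log axis) of each of the 41 phosphatase genes in the 4 libraries, grouped by class, with circles for WT, squares for Helios KO and a dotted line at the level threshold of 10. Ptpn6 and Ptprc are the highest in every library, and Ptprm and Ptpro have a single high point, Helios KO replicate 2.

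Ptpn4 and Ptpn5 were each at about the same lower level in both knockout libraries. Ptpn4 encodes a cytoplasmic phosphatase with FERM and PDZ domains that acts on the zeta chain of the antigen receptor in human cells. Its value was 3051 and 3495 in WT libraries against 1626 and 1778 in knockout libraries. The groups did not overlap, and the knockout libraries were at 0.497 and 0.543 of the WT mean. Mean and SD over 2 libraries were 3273 ± 314 for WT against 1702 ± 107 for Helios KO, with a ratio of 0.520 and a log2 fold change of -0.94 (SE 0.12), an unadjusted p of 0.000340 and an adjusted p of 0.427 in limma. It rested on 782 to 2069 recovered reads in a library.

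Ptpn5 encodes the striatal-enriched phosphatase, best known in neurons, which binds MAP kinases through a kinase interaction motif and dephosphorylates ERK, p38 and the Src family kinase Fyn. Its value was 1793 and 2069 in WT libraries against 918 and 891 in knockout libraries. The groups did not overlap here either, and the knockout libraries lay closer to each other than the WT libraries did. Mean and SD over 2 libraries were 1931 ± 195 for WT against 905 ± 19.1 for Helios KO, with a ratio of 0.469 and a log2 fold change of -1.09 (SE 0.12), an unadjusted p of 0.000192 and an adjusted p of 0.427 in limma. Both genes were chosen with their values known, so the fits below, each with a library left out, are a description. The part of other blood cells in these values was not tested. When Helios KO replicate 2 was left out, Ptpn4 had a log2 fold change of -1.01 and Ptpn5 of -1.07. When Helios KO replicate 1 was left out they had -0.88 and -1.11. Without WT replicate 1 they had -1.04 and -1.19, and without WT replicate 2 they had -0.84 and -0.99. Neither gene was called when a WT library was left out. In the fits without a knockout library, the lone knockout library left is assumed to vary like the WT libraries. In those without a WT library, the lone WT library is assumed to vary like the knockout libraries. Ptpn4 and Ptpn5 were the 2 members called without Helios KO replicate 2, where the background was 0.277% of all genes. They were 2 of the 8 called without Helios KO replicate 1, where it was 6.4%. Fewer cells that express a gene and less of its RNA per cell cannot be told apart in such bulk samples.

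The closest relatives of these 2 genes overlapped between the genotypes, and the difference between relatives was not tested. Ptpn3, the other FERM and PDZ phosphatase, was at 123 and 143 in WT libraries against 115 and 158 in knockout libraries, so that its groups overlapped (log2 fold change 0.02, SE 0.28). Within a library, the value of Ptpn4 per kb was 24.9 and 24.4 times that of Ptpn3 in WT and 14.2 and 11.3 times in the knockout. Ptpn7, the leukocyte phosphatase that binds MAP kinases through the same kind of motif as Ptpn5, was at 9421 and 9203 in WT libraries against 9954 and 8372 in knockout libraries (log2 fold change -0.03, SE 0.12). The value of Ptpn7 was 5.25 and 4.45 times that of Ptpn5 in WT and 10.8 and 9.39 times in the knockout. The size of these ratios depends on the divisors, 3.103 kb for Ptpn7 and 0.765 kb for Ptpn5. In recovered reads Ptpn7 had 26249 to 31093 in a library and Ptpn5 610 to 1691. Ptprr, the remaining member of that subfamily, reached at most 3.54 in a library and was not tested.

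**Figure D2:**
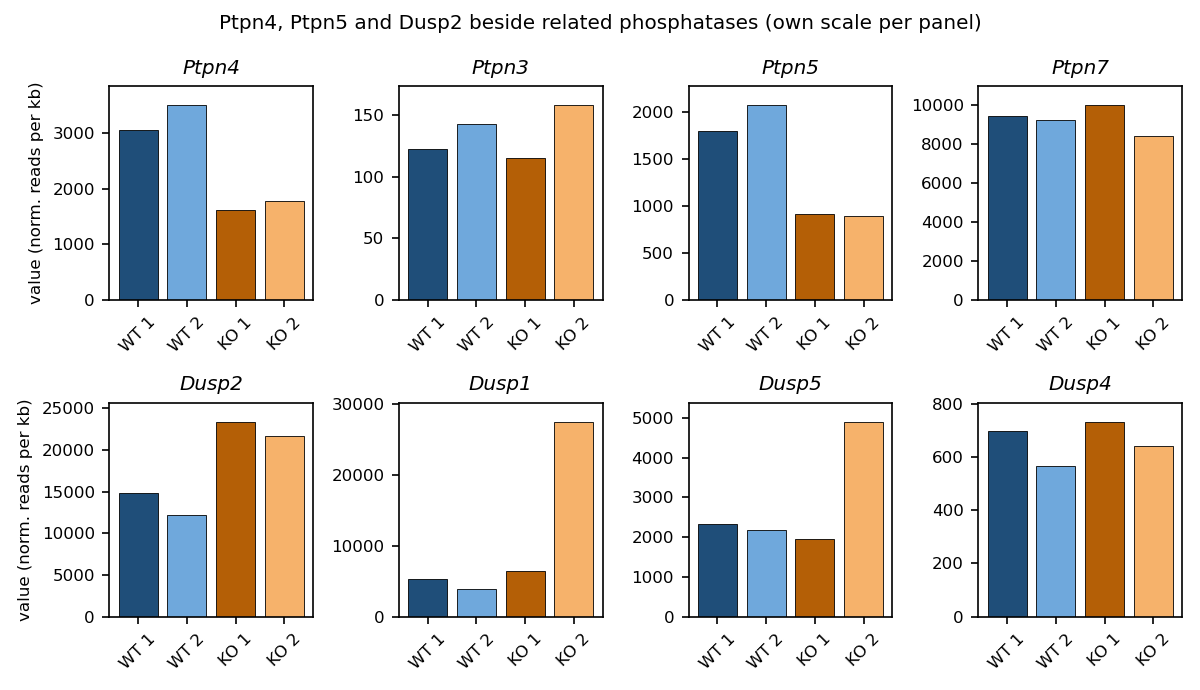
Deposited value (normalised reads per kb, linear axis from 0, own scale per panel) of Ptpn4 and Ptpn5 beside their relatives Ptpn3 and Ptpn7, and of Dusp2 beside Dusp1, Dusp5 and Dusp4, with 1 bar per library. Ptpn4 and Ptpn5 are lower and Dusp2 higher in both knockout libraries, while Dusp1 and Dusp5 have their highest bar in Helios KO replicate 2.

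Promoter windows are shown for these genes because Ptpn4 and Ptpn5 lay lower together and Dusp2 lay higher. The sequences are RefSeq's on GRCm38.p6, the assembly of mm10, from 250 bases before to 50 bases after an annotated start, on the gene's own strand. Capitals mark GGGAA or its reverse complement TTCCC, the core of the motif bound by Ikaros family proteins, to which Helios belongs. The windows lie at chr1:119837022-119837321 (minus strand) for Ptpn4, at chr7:47132549-47132848 and chr7:47133635-47133934 (minus strand) for 2 starts of Ptpn5, and at chr2:127335909-127336208 (plus strand) for Dusp2.
Ptpn4: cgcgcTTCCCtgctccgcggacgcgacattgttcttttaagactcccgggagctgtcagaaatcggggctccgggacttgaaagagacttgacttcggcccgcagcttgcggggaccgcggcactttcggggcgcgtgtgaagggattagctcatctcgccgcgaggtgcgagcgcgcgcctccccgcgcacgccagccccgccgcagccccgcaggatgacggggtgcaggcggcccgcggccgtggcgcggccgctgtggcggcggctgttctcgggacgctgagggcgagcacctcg
Ptpn5, inner start: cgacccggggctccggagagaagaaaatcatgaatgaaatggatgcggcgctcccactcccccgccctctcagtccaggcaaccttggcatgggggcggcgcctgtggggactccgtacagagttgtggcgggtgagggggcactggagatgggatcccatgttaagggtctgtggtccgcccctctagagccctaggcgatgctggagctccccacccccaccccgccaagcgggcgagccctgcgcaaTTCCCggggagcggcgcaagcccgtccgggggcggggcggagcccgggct
Ptpn5, outer start: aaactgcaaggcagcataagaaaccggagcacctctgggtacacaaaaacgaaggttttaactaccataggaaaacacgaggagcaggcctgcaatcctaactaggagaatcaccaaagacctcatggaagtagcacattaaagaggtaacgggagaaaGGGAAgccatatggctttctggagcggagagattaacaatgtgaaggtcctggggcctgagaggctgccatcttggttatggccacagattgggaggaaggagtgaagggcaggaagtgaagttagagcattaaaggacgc
Dusp2: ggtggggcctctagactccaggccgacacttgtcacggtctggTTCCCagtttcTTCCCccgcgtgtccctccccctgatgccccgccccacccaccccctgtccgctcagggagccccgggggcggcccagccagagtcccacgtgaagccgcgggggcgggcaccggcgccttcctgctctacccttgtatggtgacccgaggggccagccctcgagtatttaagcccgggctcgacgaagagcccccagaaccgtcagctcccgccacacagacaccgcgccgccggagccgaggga
The core occurred once in the Ptpn4 window, once in each Ptpn5 window and at 2 positions in the Dusp2 window. Of the 41 members 36 had a promoter entry, and 24 of these 36 (66.7%) held the core on either strand in at least 1 window, beside 65.5% of all 27025 genes with an entry. So short a motif is common, and a match is a description of the letters. The cyclic AMP response element TGACGTCA, a palindrome that does not overlap the core, was in a window of 3 members, Dusp1, Ptpn11 and Ptprs, beside 2.03% of all genes.

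The genes lie apart in the genome. Ptpn4 (ENSMUSG00000026384) spans chr1:119652467-119837613, Ptpn5 (ENSMUSG00000030854) chr7:47077795-47133684 and Dusp2 (ENSMUSG00000027368) chr2:127336159-127338376 in mm10. The library kit does not mark strand, and 24 of the 41 members contain or touch an annotated gene on the other strand, for example Gm14377 in Ptpn5 and the pseudogene Gm8338 in Ptpn4, whose reads could be counted with them. The 3 nearest tested genes on each side of Ptpn4, Ptpn5 and Dusp2 made 18 in all. Of these, 3 lay lower and 1 higher in both knockout libraries, beside 15.7% of all genes lower and 12.5% higher. An unadjusted limma p under 0.05 was found for 1 of the 18, beside 3.34% of all genes. It was Dbi, an acyl-CoA binding protein gene near Ptpn4, which lay higher (2197 and 2211 against 2769 and 2580.3, log2 fold change 0.28, SE 0.10). Epb41l5, the tested gene next to Ptpn4, was at 46.8 and 40.5 in WT libraries against 13.6 and 34.6 in knockout libraries (log2 fold change -0.97, SE 0.59). Of the 41 members 10 lie on chromosome 1, as Ikzf2 does. Among these, Ptpn4 lay lower in both knockout libraries, Ptpn14 and Dusp10 lay higher, and the others overlapped. Over all genes the shares were 15.7% lower and 12.5% higher, and an effect of position was not tested.

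Dusp2 was the inducible nuclear phosphatase that lay higher in both knockout libraries by a similar amount. It encodes a MAP kinase phosphatase of activated lymphocytes that acts on ERK and p38 in the nucleus. Its value was 14803 and 12169 in WT libraries against 23372 and 21708 in knockout libraries, without overlap. Helios KO replicate 1 was the higher of the 2 knockout libraries, at 1.73 times the WT mean, and Helios KO replicate 2 was at 1.61 times. In replicate 1 the summed red pulp macrophage markers were at 1539, below both WT libraries. The B cell (1041), NK and cytotoxic (4413), platelet (130) and mast cell and basophil markers (22.0) also lay below both. Neutrophil and erythroid markers lay between the WT libraries. The plasma cell markers (11860 against 9730 and 10086 in WT) and dendritic cell markers (6252 against 4801 and 5092) lay above both. Mean and SD over 2 libraries were 13486 ± 1863 for WT against 22540 ± 1176 for Helios KO, with a log2 fold change of 0.75 (SE 0.13), an unadjusted p of 0.00167 and an adjusted p of 0.666 in limma. In limma its adjusted p was 0.114 when Helios KO replicate 2 was left out and 0.0508 when replicate 1 was.

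The other nuclear phosphatases of that class, which share the property of rapid induction, followed other patterns. Dusp1, which acts mainly on p38 and JNK, was at 5351 and 3882 in WT libraries against 6407 and 27440 in knockout libraries. Both knockout libraries lay above WT, but Helios KO replicate 2 was at 4.28 times the next highest library (log2 fold change 1.54, SE 0.90, adjusted p = 1.00 in limma). When Helios KO replicate 2 was left out, Dusp1 was at 0.49 on the log2 scale, with an unadjusted limma p of 0.0323 and an adjusted p of 0.678. When replicate 1 was left out it was at 2.59, with an adjusted p of 0.000269. Dusp5, a nuclear phosphatase selective for ERK, was at 2337 and 2174 in WT libraries against 1961 and 4899 in knockout libraries. It lay below WT in Helios KO replicate 1 and above every other library in replicate 2, at 2.10 times the next highest, so that its groups overlapped, and it was called only without Helios KO replicate 1 (log2 fold change 1.12, adjusted p = 0.00225), while without Helios KO replicate 2 the value was -0.20. Dusp4, which acts on ERK and JNK, was at 696 and 566 in WT libraries against 731 and 641 in knockout libraries, and overlapped (log2 fold change 0.13, SE 0.17).

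The ratio of Dusp2 to Dusp1, both per kb, was 2.77 and 3.14 in WT, 3.65 in Helios KO replicate 1 and 0.791 in replicate 2. Of the summed value of the 41 members, the 4 inducible nuclear genes made up 9.85% and 7.86% in WT, 13.0% in Helios KO replicate 1 and 18.9% in replicate 2. Dusp2 alone made up 6.29% and 5.09% in WT libraries against 9.37% and 7.50% in knockout libraries. Dusp1 made up 2.27% and 1.62% in WT, 2.57% in Helios KO replicate 1 and 9.48% in replicate 2.

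**Figure D3:**
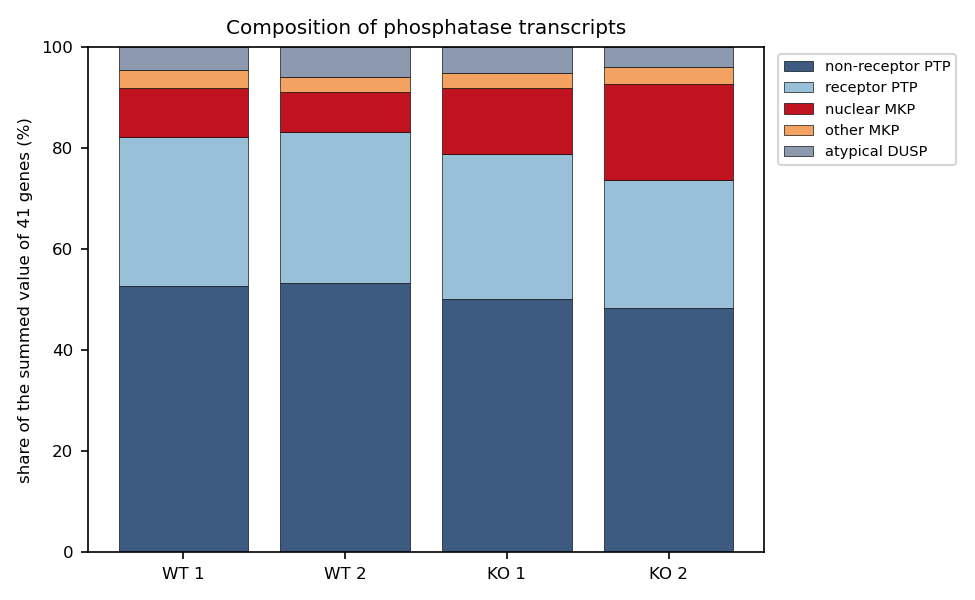
Share (%) of the summed value per kb of the 41 phosphatase genes held by each of 5 classes in each library, where MKP stands for MAP kinase phosphatase. The inducible nuclear class holds 9.85% and 7.86% in WT, 13.0% in Helios KO replicate 1 and 18.9% in replicate 2.

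Among the remaining MAP kinase phosphatases, Dusp6 and Dusp10 were close to WT in Helios KO replicate 1 and higher in replicate 2. Dusp6, a cytoplasmic phosphatase selective for ERK, was at 1627 and 1203 in WT libraries against 1477 and 2742 in knockout libraries. Dusp10, which acts on JNK and p38, was at 1564 and 1524 in WT libraries against 1612 and 2436 in knockout libraries. Dusp7, another cytoplasmic ERK phosphatase and the most abundant of this class, was at 5053 and 4486 in WT libraries against 4535 and 4424 in knockout libraries, with overlap in 1 library and no high value in replicate 2. Without Helios KO replicate 1, Dusp6 (log2 fold change 0.97) and Dusp10 (0.66) were called, with limma adjusted p of 0.0263 and 0.0325. Without Helios KO replicate 2 they were at 0.08 and 0.06, both with adjusted p of 1.00. Dusp16, a JNK phosphatase, lay higher in both knockout libraries at low values (76.6 and 81.1 against 105 and 190, log2 fold change 0.84, SE 0.37), and Dusp9 stayed between 9.63 and 14.2. Of the 9 tested MAP kinase phosphatases 4 lay higher in both knockout libraries, 5 overlapped and 0 lay lower, beside 12.5% of all genes higher and 15.7% lower.

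The summed immediate early genes and markers of other blood cells were also highest in Helios KO replicate 2, a single library. Over 25 tested immediate early genes, a list without Dusp genes, the median distance from the WT mean was 0.033 on the log2 scale for Helios KO replicate 1 and 1.25 for replicate 2, and their summed value was 266560 in replicate 2 against 106103 to 117376 in the other libraries. Fos was at 683 and 679 in WT, 820 in Helios KO replicate 1 and 26396 in replicate 2. Both knockout libraries lay above WT for 12 of the 25 and below WT for 0, beside 12.5% of all genes above and 15.7% below. Among these genes 2, Nfkbiz (2281 and 2499 against 3003 and 3879, log2 fold change 0.52, SE 0.15) and Cd69 (17394 and 15018 against 20258 and 27626, log2 fold change 0.55, SE 0.18), both higher in both knockout libraries, had an unadjusted limma p under 0.05 and 0 were called. The part of these genes, or of the other blood cells, in the values of Dusp1, Dusp2, Dusp5, Dusp6 and Dusp10 was not tested.

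**Figure D4:**
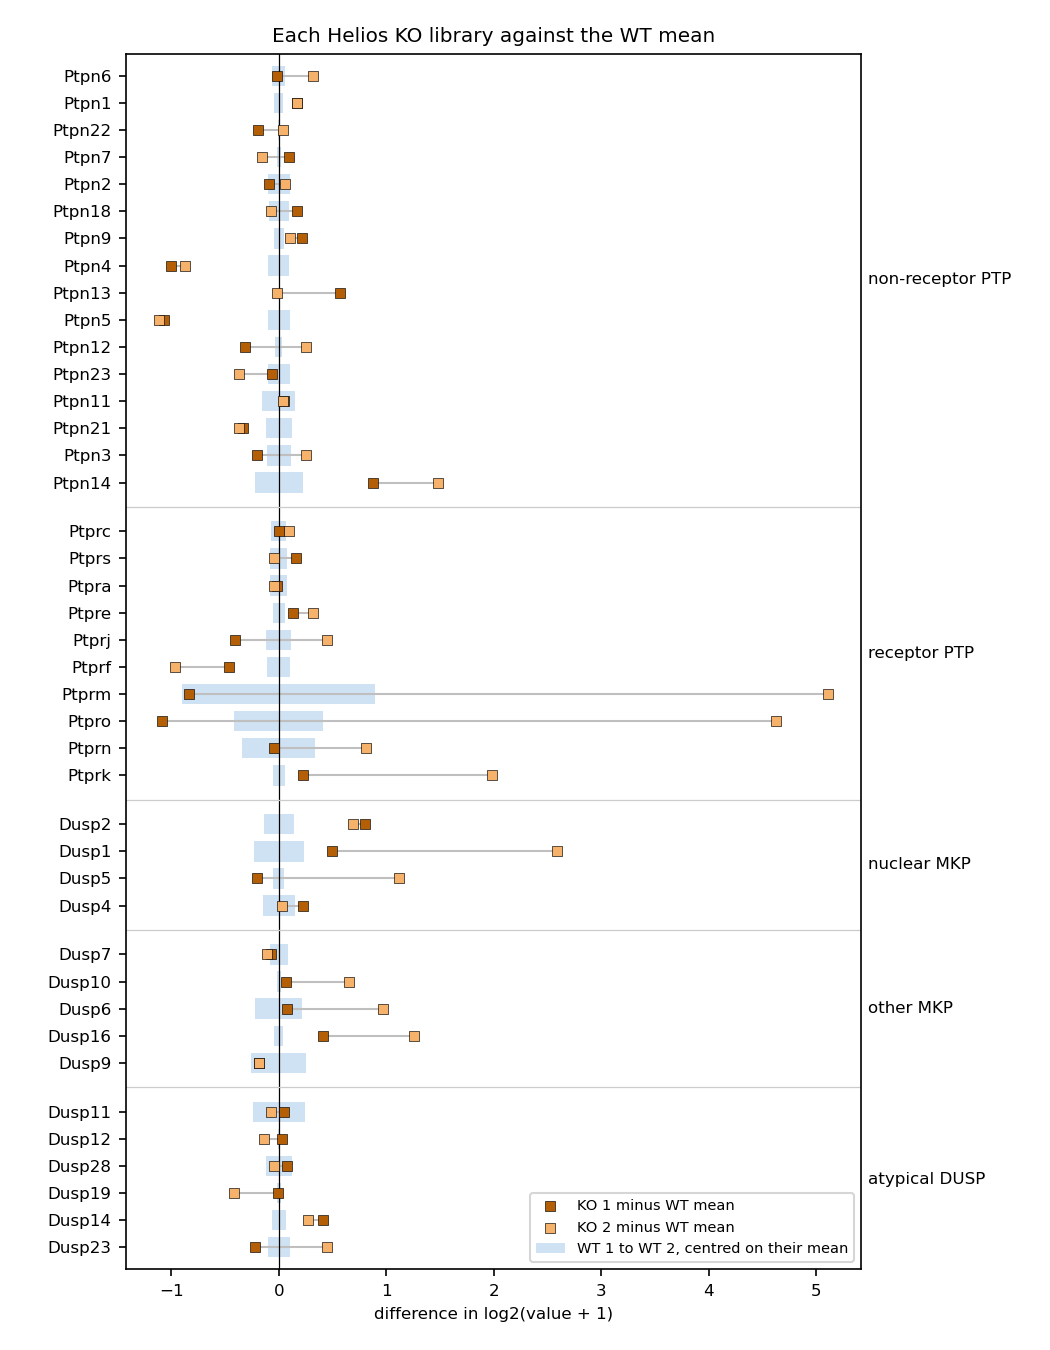
Difference in log2(value + 1) of each Helios KO library from the WT mean for the 41 phosphatase genes, with squares joined by a line, and a blue bar as long as the distance between the WT libraries. Ptpn4 (-1.01 and -0.88), Ptpn5 (-1.07 and -1.11) and Dusp2 (0.80 and 0.69) have both squares close together outside the bar, whereas Ptprm, Ptpro, Ptprk and Dusp1 have a long line to Helios KO replicate 2. In all, 14 members have both squares outside the bar on the same side. They include Ptpn1 (0.167 and 0.165) and Ptpn21 (-0.34 and -0.37), whose squares are also close together.

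Atypical dual-specificity phosphatases, small enzymes without the MAP kinase binding domain, lay near WT. Dusp11, which acts on the phosphates of RNA ends, was the most abundant at 8949 and 12491 in WT libraries against 10957 and 10032 in knockout libraries, where the WT libraries enclosed both knockout libraries. Dusp12 was at 647 and 640 in WT libraries against 659 and 584 in knockout libraries, and Dusp28 at 399 and 338 in WT libraries against 387 and 356 in knockout libraries. Over the 6 tested members of this class log2 fold changes ran from -0.22 for Dusp19 (300.4 and 308 against 302 and 227) to 0.34 for Dusp14, which has a role in restraining T cell receptor signals and was the 1 member higher in both knockout libraries (155 and 169 against 216 and 196).

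The abundant non-receptor phosphatases of antigen and cytokine receptor signalling overlapped between the genotypes or differed by little. Ptpn6, which encodes the SH2 domain phosphatase recruited by inhibitory receptors, had the highest value of all members at 56751 and 61634 in WT libraries against 58303 and 73534 in knockout libraries (log2 fold change 0.15, SE 0.14). It made up 23.4% to 25.8% of the summed member value in the 4 libraries, and was 85.2 to 119 times its relative Ptpn11 by value. That ratio and share rest in large part on the divisors, 0.421 kb for Ptpn6 and 5.567 kb for Ptpn11. In recovered reads Ptpn6 had 21313 to 31280 in a library, Ptpn11 2987 to 3944 and Ptprc 127003 to 163201. Ptpn11, the SH2 domain phosphatase that promotes Ras and ERK signalling, was at 666 and 539 in WT libraries against 618 and 616 in knockout libraries, within the WT range.

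Ptpn1, which acts on the insulin receptor and on JAK kinases, was at 23140 and 21795 in WT libraries against 25215 and 25182 in knockout libraries. It lay higher in both knockout libraries by a small amount (log2 fold change 0.17, SE 0.09, adjusted p = 1.00 in limma). Its relative Ptpn2, which restrains JAK and STAT signals of cytokine receptors, was at 3170 and 3647 in WT libraries against 3193 and 3538 in knockout libraries, inside the WT range. Ptpn22, which restrains Lck and Zap70 together with the kinase Csk, was at 15691 and 15563 in WT libraries against 13707 and 16024 in knockout libraries, and overlapped (log2 fold change -0.08, SE 0.11).

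Less abundant non-receptor members followed several patterns. Ptpn14, a phosphatase known for its part in Hippo pathway control, lay higher in both knockout libraries at low values (17.4 and 24.1 against 38.4 and 59.1, log2 fold change 1.18, SE 0.49, adjusted p = 1.00 in limma). Its relative Ptpn21 lay lower in both (171 and 144 against 124 and 121, log2 fold change -0.35, SE 0.24). Ptpn13, a large scaffold phosphatase with PDZ domains, was at 1497 and 1492 in WT, at 2220 in Helios KO replicate 1 and at 1481 in replicate 2. Ptpn12, a cytoplasmic phosphatase of adhesion proteins, lay on opposite sides of WT in the 2 knockout libraries, at 906 and 1343 against 1101 and 1150. Ptpn9 lay slightly higher in both knockout libraries (2765 and 2598 against 3107 and 2884, log2 fold change 0.16). Ptpn18 (3494 and 3079 against 3680.2 and 3111, log2 fold change 0.045) and Ptpn23 (1194 and 1039 against 1067 and 859, log2 fold change -0.22) overlapped.

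Among receptor phosphatases the abundant members were close to WT. Ptprc, which encodes CD45, the phosphatase that keeps Lck ready for activation, was at 43251 and 47533 in WT libraries against 45523 and 48416 in knockout libraries (log2 fold change 0.05, SE 0.11). Ptprs, a proteoglycan receptor of the LAR group, was at 12865 and 11547 in WT libraries against 13656 and 11799 in knockout libraries, and Ptpra, an activator of Src family kinases, at 11832 and 10617 in WT libraries against 11101 and 10845 in knockout libraries. The values of both overlapped. Ptprf, the LAR gene itself, was far lower and lay lower still in both knockout libraries (149 and 129 against 100 and 70.4, log2 fold change -0.72, SE 0.31, adjusted p = 1.00 in limma). Ptpre lay higher in both (984 and 1064 against 1118 and 1275, log2 fold change 0.22, SE 0.13). Ptprj, which encodes CD148, was at 195 and 229 in WT libraries against 159 and 288 in knockout libraries, on opposite sides of WT in the 2 knockout libraries.

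A small group of receptor phosphatases was high in a single library. Ptprm, a homophilic adhesion phosphatase, was at 4.85 and 19.3 in WT, at 5.09 in Helios KO replicate 1 and at 374 in replicate 2. Ptpro, which is expressed by podocytes and by macrophages among other cells, was at 8.96 and 16.7 in WT, 5.25 in Helios KO replicate 1 and 326 in replicate 2. Both rested on as few as 12 and 11 recovered reads in the lowest library, and replicate 2 was 19.4 and 19.6 times the next highest. Both were called without Helios KO replicate 1 (log2 fold changes of 5.11 and 4.63, limma adjusted p of 0.00487 and 0.00137), and lay below the WT mean without Helios KO replicate 2 (-0.84 and -1.09, adjusted p of 1.00 each). Together with Dusp1 these were the 3 members at least 4-fold above every other library in Helios KO replicate 2, where the background was 3.83% of all genes. Ptprk, a relative of Ptprm, was at 14.5 and 13.3 in WT, 16.3 in Helios KO replicate 1 and 57.7 in replicate 2. On the log2 scale the median red pulp macrophage marker stood at -1.18 relative to the WT mean for Helios KO replicate 1 and at 4.99 for replicate 2, and 0 of the 11 were at 0 in any library. The part of such cells in these values was not tested.

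Most members cleared the level rule in every library. All 4 libraries were at or above 10 for 38 members, 3 for Dusp9 and 2 for Ptprm and Ptpro, each of which passed through 1 WT and 1 knockout library. Just outside it were Dusp3 (3.10 to 9.17 in 3 libraries and 28.8 in Helios KO replicate 2), Dusp8 (0.331 to 2.44, and 16.4 in that library) and Dusp18 (3.46 to 8.44). The 14 names that did not pass were not tested.

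Genes that work with these phosphatases gave 0 calls in limma. Of 36 tested genes of the MAP kinase cascade, the substrates and upstream kinases of Dusp enzymes, 0 had an unadjusted limma p under 0.05, both knockout libraries lay above WT for 7 and below WT for 5 (all genes 12.5% and 15.7%), and log2 fold changes ran from -0.18 to 0.29 with a median of -0.025. The smallest p belonged to Map3k8 (1159 and 1155 against 1351 and 1399, log2 fold change 0.25, SE 0.10) and Map2k3 (5513 and 5694 against 6218 and 7224, log2 fold change 0.26, SE 0.11). Of 32 tested antigen receptor kinases, adaptors and partners, 0 had an unadjusted p under 0.05, 6 lay higher and 2 lower (all genes 12.5% and 15.7%), and the median was 0.02. Themis had the smallest p among them (968 and 932 against 1069 and 1371, log2 fold change 0.35, SE 0.15). Lck was at 141353 and 113838 in WT libraries against 137765 and 124128 in knockout libraries. Syk and Gab2, named after their values were seen, were high in Helios KO replicate 2, at 1611 against 127 to 139 and at 182 against 9.79 to 13.0.

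Phosphatases outside the name rule included 3 genes at an unadjusted limma p under 0.05, all lower, and 0 called. The background at that level was 2.06% of all genes lower. Of 26 tested, 9 lay lower in both knockout libraries and 0 higher, beside 15.7% of all genes lower and 12.5% higher, and the median log2 fold change was -0.05. Cdc25b, which activates cyclin-dependent kinases, was at 11669 and 12471 in WT libraries against 10127 and 9199 in knockout libraries (log2 fold change -0.32, SE 0.10). Ubash3b, a suppressor of T cell receptor signalling of the histidine phosphatase fold, was at 14629 and 15426 in WT libraries against 12783 and 12400 in knockout libraries (-0.25, SE 0.09). Cdc14b, a cell cycle phosphatase, was at 303 and 327 in WT libraries against 228 and 226 in knockout libraries (-0.47, SE 0.18).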

How the data were processed

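Splenic CD4+CD25+ cells were measured by RNA-seq in 2 WT and 2 Helios KO samples, grouped by title and genotype label. The submitters' processing notes name bcl2fastq 2.17.1.14 and mm10 but no aligner or counter. Each deposited value is a signal that the authors, per the file headers, first normalised by a method not named there and then put on a scale of transcript kb (median over a gene's transcripts).

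Genotypes were compared with limma 3.58.1 (R 4.3.3) as log2(value + 1) over the 11571 genes at 10 or more in at least 2 libraries, with genotype as its sole term, trended and robust variance moderation, two-sided tests and Benjamini-Hochberg adjustment over all these genes. The scale understates changes of low genes. Multiplying by GENCODE M21 median transcript length gave whole reads for 97.2% of 58026 nonzero values (tolerance 0.01 read), used for depth and limma-voom. Intervals from so few libraries are wide, and reads carry no molecular identifiers. The fit was run on simulated reads with the same dispersion for all genes and no library that stood apart. That run cannot show how the fit handles the spread between the knockout libraries here.

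Members and lists were chosen with earlier results of these data known. The genes named with values are Ptpn4, Ptpn5, Dusp2, members at unadjusted p under 0.05, the 3 most abundant of each class, members differing at least 4-fold between the knockout libraries, and known T cell phosphatases, 24 in all, with members just inside and outside the threshold, 2 or more genes of each other list, and Ikzf2, Foxp3 and Il2ra as checks. Relatives, other members and Lck named beside them were chosen after their values were seen. Some genes of these lists are not reported here. Dusp21, Dusp22, Dusp27, Ptpn20, Ptprq, Ptprv and Ptprz1 are not analysed here.

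Alternatives were median-of-ratios or read-total scaling, limma-voom, a replicate block, dropping the filter, requiring 10 CPM on average, a pseudocount of 0.1, a log2 threshold of 1 and leaving out each library.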

Additional observations from a re-analysis of the deposited data

How the results depend on the processing

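With all 4 libraries, 0 genes and 0 phosphatases were called under every scaling, filter, pseudocount and test tried, and the median log2 fold change of the members stayed at 0.043 to 0.059. The members at an unadjusted p under 0.05 numbered 3 to 5, with 5 under limma-voom. With the replicate number as a block, 0 genes and 0 members were called, 3 members were at an unadjusted p under 0.05 and the median over all 41 members was 0.05. The labels do not tie equal numbers to a shared mouse or day, and the deviations of same-numbered libraries had a correlation of 0.106 over genes, so the numbers were taken as names. Leaving out each library gave 0 to 741 called genes, 0 to 8 called members, 3 to 13 members at an unadjusted p under 0.05 and a median of 0.0058 to 0.14. The nonzero counts of calls came from leaving out Helios KO replicate 1 (741 genes, 683 of them higher) or Helios KO replicate 2 (32 genes, 26 of them lower). Dusp2 stayed between 0.61 and 0.89, Ptpn4 between -1.04 and -0.84 and Ptpn5 between -1.19 and -0.99. Of 24 named members, 16 had the opposite sign without some library, and the cause was not tested, while all 24 kept their sign with all 4 libraries in. Ptprm and Ptpro gave no value under the CPM filter. Without 1 library the log2 fold change ran from -0.018 to 0.12 for Ptprc, -0.11 to 0.047 for Ptpra, -0.41 to 0.44 for Ptprj, -0.047 to 0.16 for Ptprs, -0.84 to 5.11 for Ptprm and -1.09 to 4.63 for Ptpro. It ran from -0.021 to 0.31 for Ptpn6, -0.15 to 0.10 for Ptpn7, -0.12 to 0.085 for Ptpn2, -0.11 to 0.19 for Ptpn11 and -0.19 to 0.036 for Ptpn22. For Dusp11 it ran from -0.25 to 0.23, for Dusp12 from -0.14 to 0.032, for Dusp28 from -0.11 to 0.13, for Dusp4 from -0.023 to 0.28 and for Dusp5 from -0.20 to 1.12.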

Other observations

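Among the 14 phosphatase names under the level threshold, several had their highest value in Helios KO replicate 2. Ptpru, an adhesion phosphatase related to Ptprm, was at 0 and 1.38 in WT libraries against 1.69 and 6.79 in knockout libraries. Ptprb, the phosphatase of vascular endothelium, was at 0.195 and 0.194 in WT libraries against 0.477 and 3.28 in knockout libraries. Dusp13 was listed at 0 in both WT libraries and at 3.46 and 4.96 in the knockout. Ptprn, a catalytically inactive receptor of secretory granules, passed the threshold at 71.6 and 44.3 in WT libraries against 54.6 and 99.9 in knockout libraries, on 23 to 49 recovered reads. These values are too low for a direction to be read from them.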
